A study of Homo sapiens with 24 samples.

Results

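The interferon regulatory factors (IRFs) are a family of DNA-binding proteins that switch on interferon and antiviral genes and help set the identity of myeloid cells. The members, which are IRFs and a co-regulator, were the 9 genes whose symbol in the deposited expression table is IRF1, IRF2, IRF3, IRF4, IRF5, IRF7, IRF8, IRF9 or IRF2BP2, out of 58735 genes. Their RNA levels were followed in THP-1 macrophages, which are grown from a human monocytic leukaemia line, with and without knockdown of carboxylesterase 1 (CES1), an enzyme that hydrolyses lipid esters and drugs. There were 24 RNA-seq libraries in 6 groups of 4. WT denotes the comparison cells, named control in the study's description, and CES1KD denotes cells in which a lentivirus had stably introduced a short-hairpin RNA to CES1. Every group had first been turned into macrophages with the phorbol ester PMA at 20 nM for 72 h. M0 cells were then left resting, M1 cells received LPS at 1 ug/ml with interferon gamma at 100 ng/ml, and M2 cells received IL-4 at 100 ng/ml. The sources used here do not give how long M1 and M2 stimulation lasted. Nor do they say if WT cells had an empty or scrambled vector, so vector effects and CES1 loss cannot be told apart. The labels do not say that the 4 libraries of a group came from separate cultures, so p-values measure the spread between these libraries.

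IRF proteins share a tryptophan-rich DNA-binding domain that reads GAAA repeats. IRF3, IRF5 and IRF7 are held inactive until Toll-like or nucleic acid sensors lead to their phosphorylation, and they then induce interferons and cytokines. IRF9 is the DNA-binding part of the complex ISGF3, which drives antiviral genes downstream of type I interferon, IRF7 among them. IRF1 is induced by interferon gamma and activates antigen presentation genes, and IRF2 competes with it for the same sites. IRF8 pairs with the myeloid factor PU.1 to direct monocyte and macrophage development, its close relative IRF4 is tied to the IL-4 response, and IRF2BP2 is a co-repressor first found as a partner of IRF2.

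The upstream sequences of the members bear on which signals can reach them, since interferon gamma acts through GAS sites and the factors themselves bind GAAA-containing sites. RefSeq promoter windows on GRCh38.p14 were at hand for 6 of the 9 members, as 11 windows of 250 bases before a transcript start; IRF2, IRF3 and IRF7 had none. Both strands were searched for GAS letters (TTCNNNGAA), for the interferon-stimulated response element (ISRE) and for the composite that an ETS factor such as PU.1 can share with an IRF. GAS letters stood in 6.57% of all 35116 windows of this length, ISRE letters in 3.02% and the composite in 2.41%. Matches were found in 3 of the 11 windows, and the stretches that hold them are shown 5′ to 3′ on the strand of the gene, with the matching letters in capitals. A match is a description of the letters, not a shown binding site.
IRF1, chr5:132490824-132491023, minus strand, GAS letters starting 124 bases before the transcript start: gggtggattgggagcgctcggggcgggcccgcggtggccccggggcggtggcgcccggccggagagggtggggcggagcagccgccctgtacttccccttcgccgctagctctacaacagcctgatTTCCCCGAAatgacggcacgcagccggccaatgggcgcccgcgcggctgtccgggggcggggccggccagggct
IRF5, chr7:128940627-128940656, plus strand, the composite read on the opposite strand, starting 33 bases before a start: gtctagccacTTTCGTTTCCcctggggccg
IRF9, chr14:24161191-24161220, plus strand, GAS letters starting 63 bases before the start: gaccacgtgatTTCTGGGAAaaggccctcc

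The libraries held 14881563 to 26671681 fragments assigned to genes, and 20275 to 25065 genes were above 0 in each. CES1 itself averaged 7.13, 4.63 and 6.32 FPKM (fragments per kilobase of gene, scaled to library size) in the M0, M1 and M2 groups of WT, and 0.0809, 0.0286 and 0.0505 in those of CES1KD. The second CES1KD M2 library stood apart: its correlation across genes with the other 3 was 0.951 to 0.957, against 0.977 to 0.991 for every other pair within a group, so M2 results that it moves are given with and without it. All groups share the estimate of spread per gene, so this library also entered the SE of comparisons between other groups. Of 12 macrophage marker genes 11 were expressed, with a summed level of 770 to 1550 FPKM. Fibroblast markers (1 of 8 kept, LUM at 0) summed to 2.28 to 6.05 FPKM, the highest in WT M1 through PDGFRA. Epithelial markers (0 of 6 kept, EPCAM and KRT5 at 0) reached at most 0.0753 FPKM. Lymphocyte markers (2 of 8 kept, CD3E at 0) summed to 52.8 to 68.0 FPKM in WT M0 and to 114 to 132 in CES1KD M0, almost wholly through TRAC, the T cell receptor alpha constant segment. The part of these markers in the results was not tested.

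Taken per length as FPKM, the 9 members summed to 107 ± 2.87 in WT M0 (SD, n = 4 here and for every mean) and to 180 ± 5.66 in CES1KD M0. The sum was 308 ± 14.9 in WT M1 and 324 ± 18.8 in CES1KD M1, and it was 123 ± 5.04 in WT M2 and 183 ± 25.02 in CES1KD M2. The make-up of the sum also differed. IRF2BP2 held the largest share of the family's level in WT M0 (25.4 ± 0.978%), whereas IRF7 led in CES1KD M0 (33.2 ± 1.02%), in WT M1 (40.2 ± 1.01%) and in CES1KD M1 (40.5 ± 1.93%). IRF8 led in WT M2 at 24.6 ± 0.599% and held 2.91 ± 0.318% in CES1KD M0. IRF4 was the rarest member throughout, with 1 to 36 fragments per library.

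**Figure D1:**
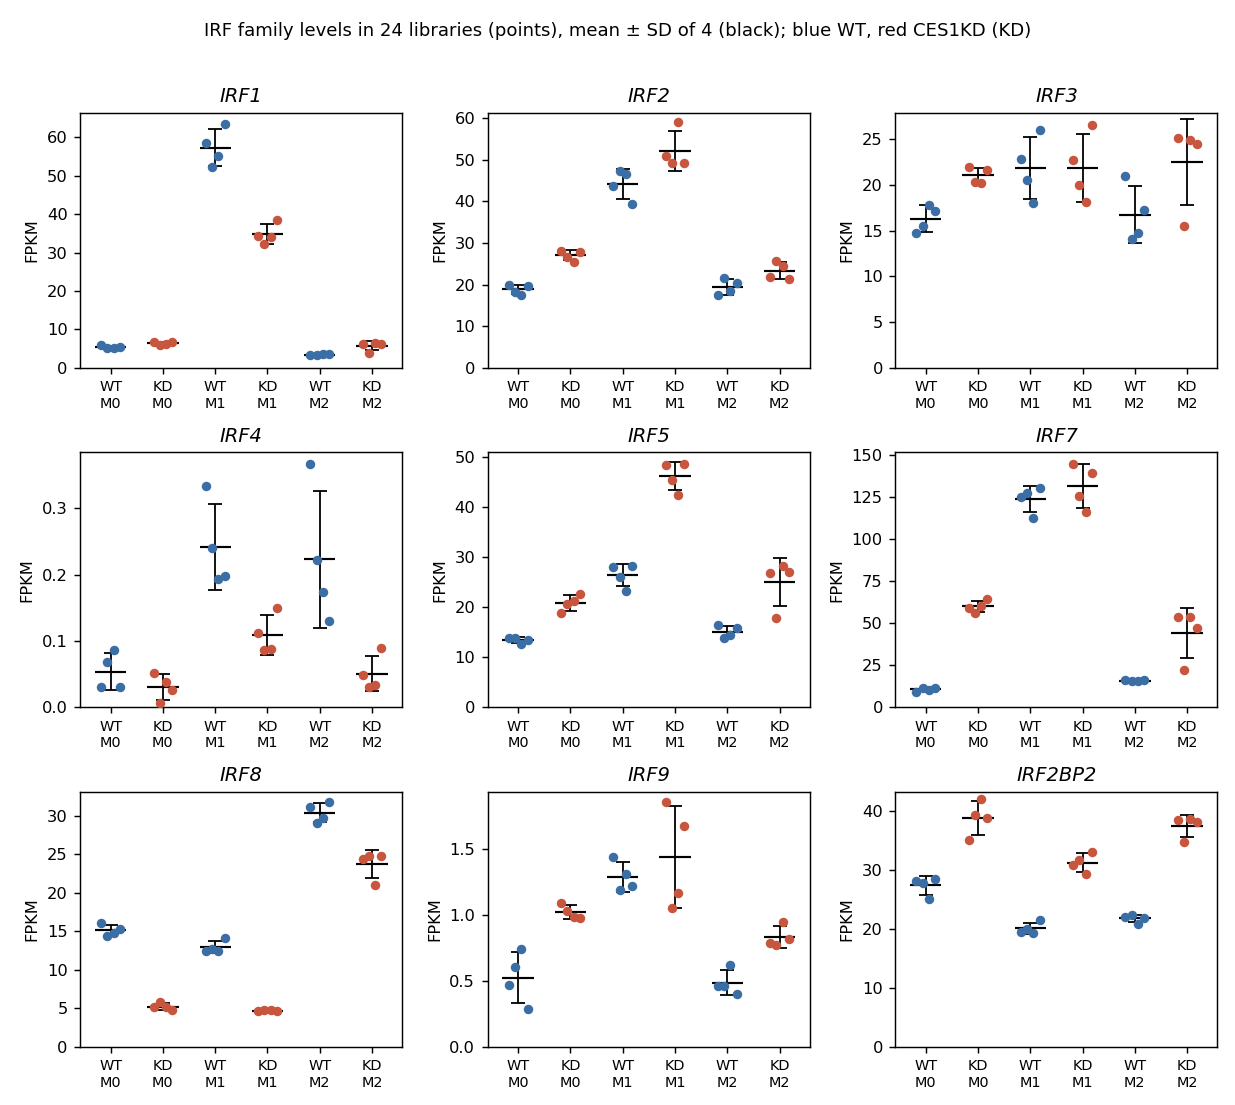
RNA level of each member in FPKM (vertical axis, starting at 0) in the 24 libraries, as points by group (blue WT, red CES1KD, with M0, M1 and M2 below), with the mean and SD of 4 in black. IRF7 stands at 56.0 to 64.3 FPKM in CES1KD M0 against 8.97 to 11.5 in WT M0, while IRF8 shows the opposite order and the 2 genotypes of IRF7 overlap in M1.

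IRF7 (chr11:612553-615999, minus strand), the factor that amplifies type I interferon production, gave the widest difference of the family between genotypes. In WT M0 the 4 libraries read 8.97, 11.2, 10.5 and 11.5 FPKM, and in CES1KD M0 they read 59.1, 56.0, 60.2 and 64.3. The groups lay far apart, a 5.68-fold ratio of means, and the log2 difference of FPKM + 1 was 2.40 ± 0.17 (SE; limma, adjusted p = 7.84e-11). After LPS and interferon gamma the genotypes lay close together. WT M1 libraries read 125, 127, 112 and 130 FPKM and CES1KD M1 libraries 145, 126, 116 and 139. These ranges overlapped, and the log2 difference of 0.08 ± 0.17 did not pass (limma, adjusted p = 0.712), which does not show that the levels were equal. In M2 the WT libraries read 16.2, 15.9, 15.3 and 16.1 FPKM, and the CES1KD libraries 53.5, 22.4, 53.7 and 47.3. The second CES1KD M2 library was the low one but still above every WT library. The log2 difference there was 1.34 ± 0.17 (limma, adjusted p = 8.62e-07), and 1.64 ± 0.08 without the second library.

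The same values seen from the side of stimulation show a much smaller step in the knockdown cells. M1 treatment raised IRF7 11.7-fold in WT (log2 3.44 ± 0.17, limma adjusted p = 1.51e-13) and 2.19-fold in CES1KD (1.12 ± 0.17, limma adjusted p = 1.34e-05). Resting CES1KD cells already held 48.4% of the mean WT M1 level, against 8.51% in resting WT cells. IL-4 raised IRF7 in WT (0.55 ± 0.17, limma adjusted p = 0.0194) and lowered it in CES1KD (-0.51 ± 0.17, limma adjusted p = 0.0370). The second of these rested on the second CES1KD M2 library, since without it the value was -0.21 (limma, adjusted p = 0.0532), and its call was also lost without any CES1KD M0 library. The first did not pass when libraries were scaled to their totals (0.46, limma adjusted p = 0.0546), nor without the first WT M0 library (0.49, limma adjusted p = 0.0667). Its SE of 0.17 also holds the spread of the second CES1KD M2 library, since all groups share the estimate of spread per gene. The WT libraries themselves did not overlap, at 8.97 to 11.5 FPKM in M0 and 15.3 to 16.2 in M2.

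IRF3 (chr19:49659569-49665875, minus strand), the constitutively made factor that starts the interferon response, stayed within a narrow band of group means from 16.3 to 22.5 FPKM. In WT M0 the libraries read 14.8, 15.5, 17.8 and 17.2 FPKM and in CES1KD M0 21.9, 20.4, 20.2 and 21.6. The groups did not overlap, yet the difference was small (0.35 ± 0.14, limma adjusted p = 0.0451) and the call was lost when any of 7 of the 8 libraries was left out, and under scaling to library totals (0.27, limma adjusted p = 0.132). In M1 the groups overlapped almost fully (-0.0030 ± 0.14, limma adjusted p = 0.990). In M2 the difference was 0.40 ± 0.14 (limma, adjusted p = 0.0252), with 1 CES1KD library, the second at 15.5 FPKM, inside the WT range of 14.1 to 20.9; without that library the difference was 0.56, and the call was lost without WT replicate 2 or 3 or any other CES1KD library. BCL2L12 overlaps IRF3 on the opposite strand over 734 bases at 2.96 to 10.0 FPKM, and counting by strand is not stated, so a share of these reads may belong to either gene.

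IRF7 relative to IRF3 within a library is a ratio free of library scaling. Its log2 value averaged -0.63 ± 0.13 in WT M0 and 1.51 ± 0.08 in CES1KD M0, so IRF7 was below IRF3 in every resting WT library and above it in every resting CES1KD library. In M1 the ratio was 2.51 ± 0.15 in WT and 2.60 ± 0.14 in CES1KD. In M2 it was -0.06 ± 0.23 and 0.92 ± 0.27. The genotypes differed in M0 and in M2 (exact permutation test, p = 0.0286, the smallest that 4 against 4 allows; adjusted p = 0.0471 over 28 such tests), and the exact permutation test gave p = 0.400 in M1.

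IRF5 (chr7:128937612-128950035, plus strand), which drives inflammatory cytokines in macrophages, was higher in CES1KD in all 3 states. It read 13.8, 13.8, 12.6 and 13.5 FPKM in WT M0 and 18.7, 20.7, 21.3 and 22.7 in CES1KD M0. In M1 the WT libraries read 28.0, 26.1, 23.3 and 28.3 FPKM and the CES1KD libraries 48.4, 45.4, 42.5 and 48.7. No CES1KD library fell inside the WT range in either state, nor in M2, where the lowest CES1KD value was the second library at 17.9 FPKM against a WT maximum of 16.4. For M0, M1 and M2 the log2 differences were 0.60, 0.79 and 0.67 (SE 0.10 each; limma, adjusted p = 3.66e-05, 8.98e-07 and 8.50e-06). Without the second library the M2 difference was 0.82. M1 treatment raised IRF5 in both genotypes, by 0.92 in WT and 1.11 in CES1KD. IL-4 gave 0.16 in WT and 0.23 in CES1KD, neither called, although the latter passed at 0.38 without the second library (limma, adjusted p = 0.000296).

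IRF9 (chr14:24161053-24166565, plus strand), the DNA-binding subunit of ISGF3, was low, at 18 to 150 fragments per library. WT M0 libraries read 0.472, 0.603, 0.740 and 0.286 FPKM and CES1KD M0 libraries 1.09, 1.03, 0.987 and 0.974. Every CES1KD value was above every WT value, and the log2 difference of FPKM + 1 was 0.41 ± 0.10 (limma, adjusted p = 0.00128); adding 1 compresses changes at this level, and the ratio of means was 1.94. In M2 the difference was 0.30 ± 0.10 (limma, adjusted p = 0.0143), again with no overlap, and in M1 it was 0.08 ± 0.10 (limma, adjusted p = 0.526). M1 treatment raised IRF9 2.46-fold in WT (limma, adjusted p = 3.26e-05). In CES1KD the M1 ratio was 1.41 with overlapping libraries (limma, adjusted p = 0.0392), and the call was lost without replicate 1 or replicate 4 of CES1KD M1, or without any CES1KD M0 library. AL136295.5 covers all 5513 bases of IRF9 on the same strand at 0.0612 to 0.338 FPKM, and how shared exons were counted is not stated, so the level of IRF9 is uncertain.

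IRF1 (chr5:132481609-132490798, minus strand), whose upstream stretch with GAS letters is printed above, was the member whose knockdown difference pointed in opposite directions in different states. WT M1 libraries read 58.5, 52.3, 55.1 and 63.4 FPKM and CES1KD M1 libraries 34.4, 32.2, 34.0 and 38.4. In M2 the order was the other way round, with WT at 3.25, 3.37, 3.50 and 3.61 FPKM and CES1KD at 6.10, 3.95, 6.52 and 6.14. The groups did not overlap in either state. The log2 difference was -0.70 ± 0.09 in M1 (limma, adjusted p = 1.43e-06) and 0.57 ± 0.09 in M2 (limma, adjusted p = 2.46e-05), the latter 0.71 without the second CES1KD library. In M0, WT libraries read 5.80, 5.20, 5.10 and 5.36 FPKM and CES1KD libraries 6.60, 5.95, 6.17 and 6.61. These did not overlap either, but the difference of 0.20 ± 0.09 was not called over all genes (limma, adjusted p = 0.0743) and was called when only those 8 libraries were fitted (limma, adjusted p = 0.00602).

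M1 treatment raised IRF1 10.7-fold in WT (log2 3.19 ± 0.09) and 5.49-fold in CES1KD (2.28 ± 0.09; limma, adjusted p = 9.76e-18 and 1.18e-14). IL-4 lowered it in WT (-0.52 ± 0.09, limma adjusted p = 0.000190), and the CES1KD value of -0.15 was not called, nor was that of -0.015 without the second CES1KD M2 library. C5orf56 overlaps IRF1 on the opposite strand over 7094 bases at 0.167 to 1.84 FPKM, and without stated counting by strand the reads of this pair cannot be told apart either. The chromosomal surroundings also differed between genotypes: of 49 tested genes within 5 Mb on either side of IRF1, 35 were lower and 2 higher in CES1KD M0, 33 lower and 2 higher in M1, and 32 lower and 2 higher in M2, where 26.3%, 28.7% and 26.7% of all genes were lower. The median log2 difference of these neighbours was -0.47, -0.44 and -0.36, against 0.0029, 0.0026 and -0.0079 over all genes, and its part in the IRF1 values was not tested. For the other 8 members the median of the neighbours lay between -0.21 and 0.26, the highest being that of IRF2 in M0.

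IRF2 (chr4:184387713-184474580, minus strand), the antagonist of IRF1, was higher in CES1KD in each state by a smaller margin. WT M0 libraries read 19.8, 18.1, 17.6 and 19.7 FPKM and CES1KD M0 libraries 28.0, 26.7, 25.5 and 27.9. The groups lay apart with a log2 difference of 0.50 ± 0.08 (limma, adjusted p = 9.20e-06). In the stimulated states it was smaller, 0.23 ± 0.08 after M1 (limma, adjusted p = 0.0131) and 0.25 ± 0.08 after M2 treatment (limma, adjusted p = 0.00957). The M2 libraries overlapped, at 17.4 to 21.6 FPKM in WT and 21.3 to 25.6 in CES1KD, where the second library was the highest. With any 1 library left out the M2 difference ranged from 0.20 to 0.30. In M1 the call was lost without the fourth WT library (0.18) or without the third CES1KD library (0.17), and under scaling to library totals (0.15, limma adjusted p = 0.0757). M1 treatment raised IRF2 by 1.19 in WT and by 0.92 in CES1KD, and IL-4 gave 0.04 and -0.21, neither called, although the latter passed at -0.25 without the second CES1KD library (limma, adjusted p = 0.0205).

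The balance of the antagonists was read as the log2 ratio of IRF1 to IRF2 within each library. In WT M1 it was 0.42, 0.15, 0.24 and 0.69, and in CES1KD M1 it was -0.57, -0.61, -0.80 and -0.35. In FPKM, IRF1 thus exceeded IRF2 in all 4 WT M1 libraries and in no other library of the study. That sign depends on the gene lengths used for FPKM, 7799 bases for IRF1 and 3116 for IRF2. In fragments, IRF1 also exceeded IRF2 in all 4 CES1KD M1 libraries (3590 to 6083 against 2496 to 3387). Differences of the log2 ratio between groups do not depend on the lengths. The genotypes differed by -0.96 in M1 and by -0.28 in M0 (exact permutation test, p = 0.0286 each, adjusted p = 0.0471 over 28 tests). In M2 the difference was 0.44 (exact permutation test, p = 0.143), with the second CES1KD library at -2.70 and the other 3 at -1.90 to -1.80.

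**Figure D2:**
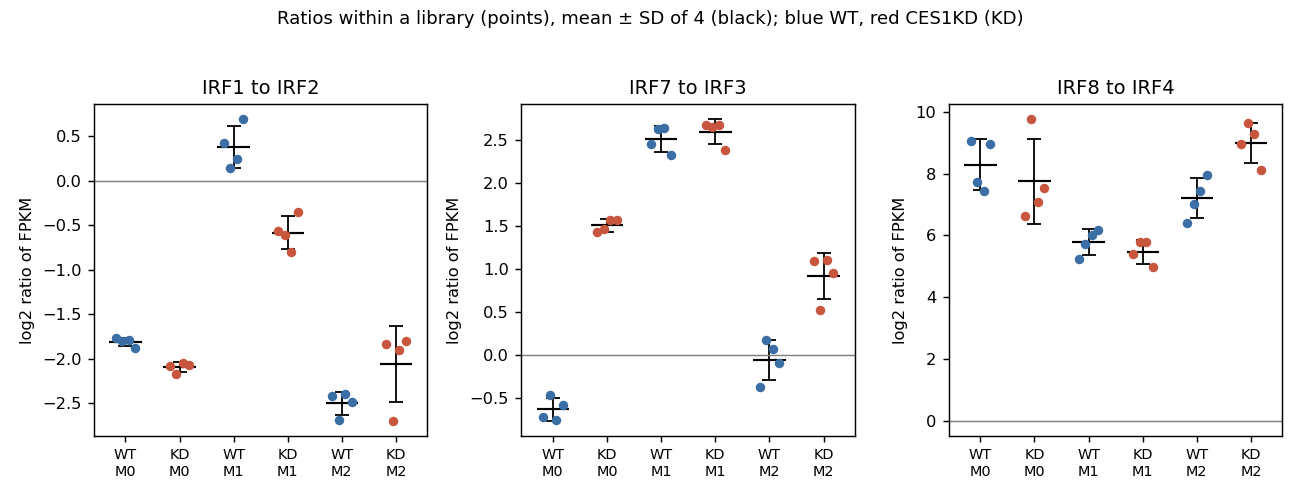
Log2 ratio of FPKM between paired members within a library (vertical axis), as points for the 6 groups with the mean and SD of 4 in black; blue is WT and red CES1KD. IRF1 to IRF2 lies above 0 only in WT M1 (0.15 to 0.69), and IRF7 to IRF3 lies at -0.76 to -0.47 in WT M0 and at 1.43 to 1.57 in CES1KD M0.

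IRF8 (chr16:85898803-85922609, plus strand), the partner of PU.1, was the tested member called lower in CES1KD in all 3 states. WT M0 libraries read 16.03, 14.4, 14.8 and 15.2 FPKM, and CES1KD M0 libraries 5.13, 5.82, 5.19 and 4.76. WT M1 libraries read 12.5, 12.7, 12.5 and 14.2 FPKM, and CES1KD M1 libraries 4.64, 4.72, 4.78 and 4.69. The genotypes were widely separated in both states, with levels 2.90 and 2.75 times as high in WT. The log2 differences were -1.38 ± 0.06 and -1.29 ± 0.06 (limma, adjusted p = 9.76e-15 and 3.18e-14). In M2 the WT libraries read 31.2, 29.01, 29.8 and 31.8 FPKM and the CES1KD libraries 24.3, 24.8, 21.0 and 24.8. These still did not overlap, but the gap was narrower (-0.35 ± 0.06, limma adjusted p = 3.33e-05). Fewer cells of a type and less RNA per cell cannot be told apart in bulk RNA.

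IL-4 raised IRF8 in both genotypes, 2.01-fold in WT (log2 0.96 ± 0.06) and 4.55-fold in CES1KD (1.99 ± 0.06; limma, adjusted p = 1.52e-11 and 8.81e-17). Without the second CES1KD M2 library the latter was 1.97. M1 treatment lowered it slightly in WT (-0.21 ± 0.06, limma adjusted p = 0.00513), and the CES1KD value of -0.12 was not called (limma, adjusted p = 0.0987) unless libraries were scaled to their totals (-0.33) or the fourth CES1KD M0 library was left out (-0.16). No CES1KD library in M0 or M1 reached the lowest WT library of any state.

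IRF4 (chr6:391739-411447, plus strand) was too low for the test across genes, which asked for 1 FPKM in at least 4 libraries. Its fragments summed to 25 over the 4 WT M0 libraries, 99 in WT M1 and 96 in WT M2, and to 14, 49 and 25 in the CES1KD groups. WT M2 libraries read 0.367, 0.223, 0.174 and 0.130 FPKM, and CES1KD M2 libraries 0.0488, 0.0309, 0.0339 and 0.0893. The lowest WT value was above the highest CES1KD value, and the same held in M1, where the ranges were 0.194 to 0.334 and 0.0859 to 0.150. Both differences had p = 0.0286 in the exact permutation test (adjusted p = 0.0400 over 7 comparisons), with ratios of means of 0.227 in M2 and 0.450 in M1. In M0 the groups overlapped (exact permutation p = 0.229). Within WT, IRF4 was 4.50 times as high in M1 and 4.16 times as high in M2 as in M0 (exact permutation p = 0.0286 each), while within CES1KD it was 3.54 times as high in M1 (p = 0.0286) and overlapped M0 in M2 (exact permutation p = 0.314).

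IRF2BP2 (chr1:234604269-234609525, minus strand), the co-repressor, was higher in CES1KD in each state. WT libraries read 28.1, 27.7, 25.03 and 28.5 FPKM in M0 and 22.01, 22.3, 20.8 and 21.8 in M2. CES1KD libraries read 35.0, 39.2, 42.0 and 38.8 FPKM in M0 and 38.4, 34.7, 38.5 and 38.05 in M2. The genotypes did not overlap in any state, and even the lowest CES1KD library of all, at 29.2 FPKM in M1, was above every WT library. For M0, M1 and M2 the log2 differences were 0.49, 0.61 and 0.76 (SE 0.06 each; limma, adjusted p = 1.91e-07, 5.68e-09 and 2.05e-10). Unlike most of the family it was lowered by M1 treatment, by -0.43 in WT and -0.30 in CES1KD (limma, adjusted p = 1.51e-06 and 0.000132). IL-4 lowered it in WT (-0.32, limma adjusted p = 0.000169), and in CES1KD the value was -0.05, or -0.013 without the second library, neither called.

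Counting the 8 members that could be tested, 6 were higher and 1 (IRF8) lower in CES1KD M0, where 54.3% of all 13242 tested genes were called, 28.1% higher and 26.3% lower. In M1, 3 were higher (IRF2, IRF5 and IRF2BP2) and 2 lower (IRF1 and IRF8), beside 57.2% of all genes, 28.5% higher and 28.7% lower. In M2, 7 were higher and 1 (IRF8) lower, beside 52.3%, 25.6% higher and 26.7% lower, with the same counts when the second CES1KD library was left out. With such high shares in the whole table, a call by itself says little about the family. For M0, M1 and M2 the 8 members had median log2 differences of 0.45, 0.08 and 0.49, against 0.0029, 0.0026 and -0.0079 over all genes.

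**Figure D3:**
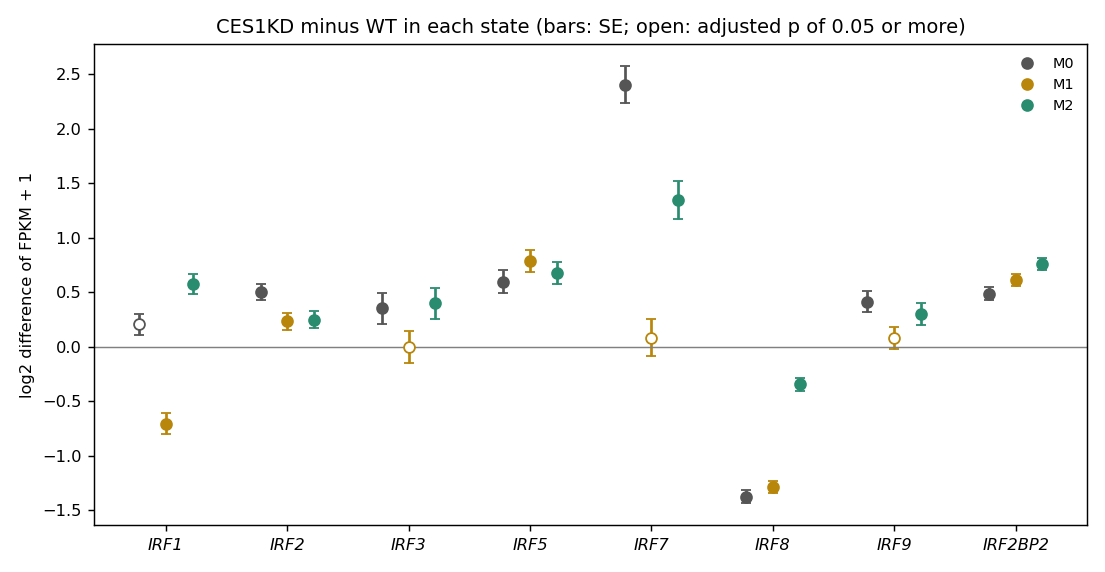
Log2 difference of FPKM + 1, CES1KD minus WT (vertical axis), for the 8 tested members in M0, M1 and M2; bars are the SE and open points have an adjusted p of 0.05 or more. IRF7 falls from 2.40 in M0 to 0.08 in M1, IRF1 lies at -0.70 in M1 and 0.57 in M2, and IRF8 lies below 0 in all 3 states.

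For stimulation, M1 against M0 in WT gave 6 members higher and 2 (IRF8 and IRF2BP2) lower, where 48.1% of all genes were called, 26.4% higher and 21.8% lower. In CES1KD it gave 5 higher and 1 (IRF2BP2) lower, beside 44.7%, 24.9% higher and 19.8% lower. M2 against M0 gave 2 higher (IRF7 and IRF8) and 2 lower (IRF1 and IRF2BP2) in WT, beside 27.1%, 14.6% higher and 12.5% lower. In CES1KD there were 1 higher (IRF8) and 1 lower (IRF7), beside 22.8%, 11.3% higher and 11.5% lower; without the second CES1KD M2 library there were 2 higher (IRF5 and IRF8) and 1 lower (IRF2). The M1 and M2 comparisons of a genotype share their M0 libraries. The M1 values also depended on scaling. The authors' library sizes were 0.870 to 0.946 of the fragment total in M1 libraries and 1.01 to 1.14 in the others, and after rescaling to the totals the median of all genes was -0.20 in WT and -0.18 in CES1KD, against 0.00049 and 0.0063 before. The calls over all genes then went from 3493 higher and 2881 lower to 2005 and 5639 in WT, and from 3296 and 2626 to 1838 and 5335 in CES1KD. For M2 in WT they went from 1934 and 1651 to 1349 and 2616. Under that scaling the M1 rise of IRF3 in WT (0.39 ± 0.14, limma adjusted p = 0.0287) became 0.15 and was not called (limma, adjusted p = 0.408); that call was also lost without replicate 1 or 2 of WT M0 or replicate 1 or 4 of WT M1.

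**Figure D4:**
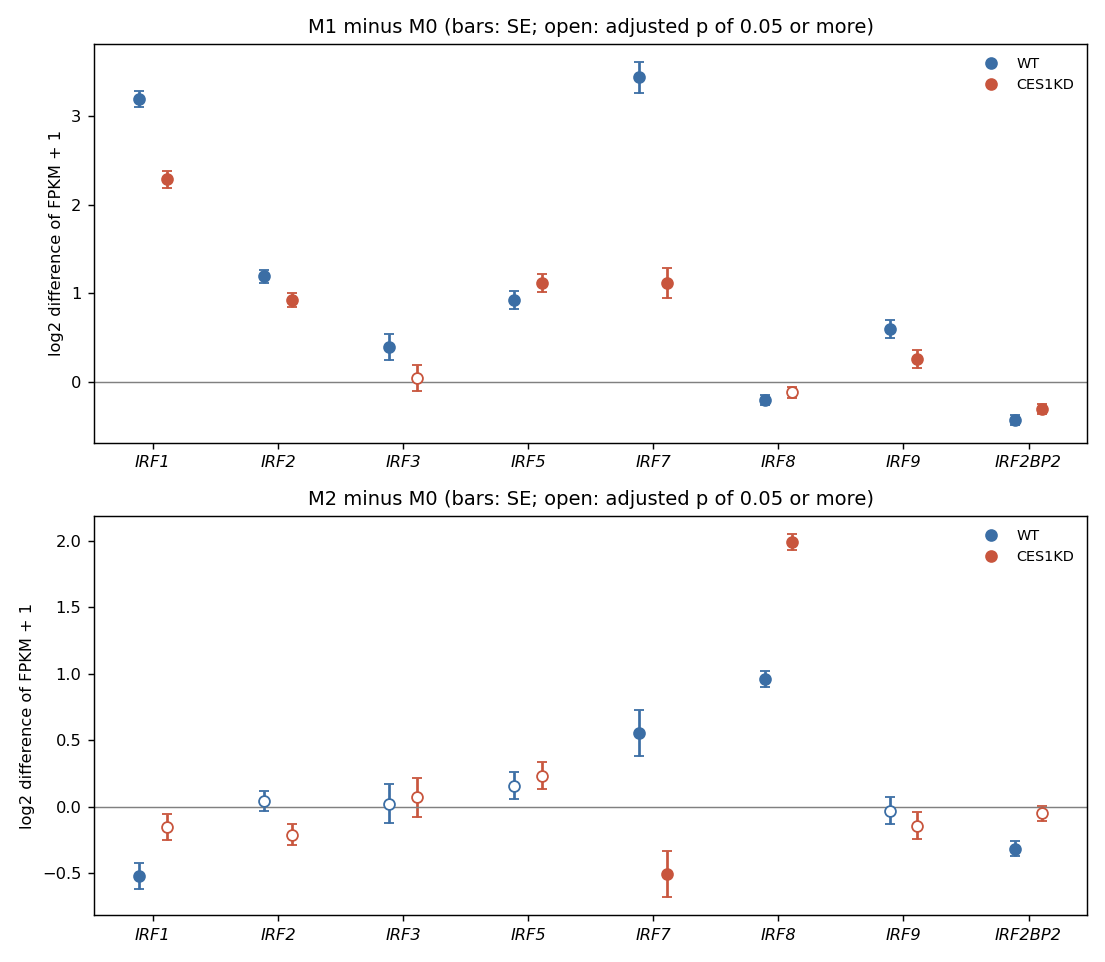
Log2 difference of FPKM + 1 for M1 minus M0 (upper panel) and M2 minus M0 (lower panel) in WT (blue) and CES1KD (red); bars are the SE and open points have an adjusted p of 0.05 or more. IRF1 and IRF7 rise by 3.19 and 3.44 in WT M1 and by 2.28 and 1.12 in CES1KD M1, and IRF8 rises by 0.96 in WT M2 and by 1.99 in CES1KD M2.

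Whether the knockdown difference itself changed with the state was tested as an interaction. Between M1 and M0 it changed for 2 of the 8 members, beside 23.6% of all genes, 10.4% with a higher and 13.2% with a lower difference in M1. For IRF7 the change was -2.32 ± 0.24 (limma, adjusted p = 2.30e-07) and for IRF1 -0.91 ± 0.13 (limma, adjusted p = 2.34e-05). Between M2 and M0 it changed for 3 members, beside 6.65% of all genes, 2.41% higher and 4.24% lower. These were IRF8 (1.03 ± 0.08, limma adjusted p = 1.86e-08), IRF7 (-1.06 ± 0.24, limma adjusted p = 0.00783) and IRF2BP2 (0.27 ± 0.08, limma adjusted p = 0.0471). The call of IRF2BP2 was lost when any of 13 of the 16 libraries was left out. The M1 changes of IRF2 (-0.27) and IRF9 (-0.34) were not called with all libraries but passed when a single library was left out: WT M1 replicate 4 or CES1KD M1 replicate 3 for IRF2, and WT M0 replicate 3 or CES1KD M1 replicate 1 for IRF9. Without the second CES1KD M2 library IRF7 gave -0.77, and IRF1, at 0.37 and not called with all libraries (limma, adjusted p = 0.114), gave 0.51 and passed (limma, adjusted p = 0.000398). For this comparison the split of all calls was 319 higher and 562 lower, and 501 and 444 when libraries were scaled to their totals.

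Across the 6 groups, sorted by their means, the libraries of neighbouring groups overlapped less for some members than for others. IRF7 ran from CES1KD M1 and WT M1, whose libraries overlapped, down through CES1KD M0, CES1KD M2, WT M2 and WT M0, with no overlap between any other neighbours. IRF8 ran from WT M2 through CES1KD M2, WT M0 and WT M1 to CES1KD M0 and CES1KD M1, and only the last pair overlapped. IRF3 had overlapping libraries at every step of its order. No step of any member passed at an adjusted p under 0.05. Each step of IRF7 and IRF8 without overlap had p = 0.0286 (exact permutation test, adjusted p = 0.0559). That p is the smallest this test allows for groups of this size, so the orders are a description. For IRF7 the limma call between CES1KD M0 and CES1KD M2 rested on the second CES1KD M2 library, as given above.

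The genes whose levels ran most like each member over the 24 libraries were found among the protein-coding genes kept, as Pearson r of log2(FPKM + 1); the libraries share their group structure, so r is a description. IRF1 ran with TAP2 (0.992), TAPBP (0.992) and PSMB9 (0.990), genes of the MHC class I antigen presentation route. IRF7 ran with TYMP (0.987), a thymidine phosphorylase, BATF2 (0.985) and LY6E (0.984). IRF8 ran with PIK3CD (0.972), a leukocyte PI3-kinase subunit, SLA (0.967) and ITGAM (0.961), the integrin CD11b. For IRF9 the nearest were ODF3B (0.931), UNC93B1 (0.922), a chaperone of endosomal Toll-like receptors, and STAT2 (0.921), its partner in ISGF3. IRF2 ran with XRN1 (0.990), CTSS (0.989) and NMI (0.984), IRF5 with MLLT6 (0.982), RAB7B (0.975) and NFKBIA (0.974), and IRF2BP2 with PHGDH (0.959), ZNF3 (0.949) and RIMS3 (0.943). IRF3 had the lowest values, with BBC3 (0.899), HMGA1 (0.891) and ASPHD1 (0.890).

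Upstream of the members, 21 of 23 genes of the routes that activate IRF3, IRF5 and IRF7 were tested. Of these, 13 were higher and 3 lower in CES1KD M0, 12 higher and 5 lower in M1, and 13 higher and 2 lower in M2 (14 and 4 without the second CES1KD library). Their median log2 differences were 0.45, 0.36 and 0.54. For M0, M1 and M2 the shares of all genes called higher were 28.1%, 28.5% and 25.6%, and those called lower 26.3%, 28.7% and 26.7%. TMEM173, the cytosolic DNA sensing adaptor STING, was lower in all 3 states: it read 38.1 to 43.6 FPKM in WT M0 and 6.59 to 6.92 in CES1KD M0, a log2 difference of -2.43 ± 0.09, with -2.40 and -2.42 after M1 and M2 treatment (limma, adjusted p = 4.69e-16 in M0). The RNA sensor DDX58 rose by 2.79 in M0 and by 2.53 in M2, and the adaptor MYD88 by 1.90 in M0 and 0.81 in M1. None of 14 interferon genes passed the minimum level. IFNB1, named after its values were seen, had 1 fragment over the WT M0 libraries and 9 over the CES1KD M0 libraries. It had 9 fragments in WT M1 against 22 in CES1KD M1, and 0 in WT M2 against 7 in CES1KD M2. These sums were neither tested nor scaled to library size, and the other interferon genes are not given here.

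Of 13 tested receptors, kinases and STATs of interferon and IL-4 signalling, 6 were higher and 1 lower in CES1KD M0, 7 higher and 2 lower in M1, and 8 higher and 1 lower in M2 (6 and 1 without the second CES1KD library). The 7 of 13 called in M0 were near the 54.3% called over all genes, which was 57.2% in M1 and 52.3% in M2. The medians of the 13 were 0.16, 0.14 and 0.27. STAT2, the partner of IRF9, went from 10.4 ± 0.792 FPKM in WT M0 to 34.5 ± 4.22 in CES1KD M0 (log2 difference 1.63). Among 15 partners and co-regulators, 9 were higher and 1 lower in M0, 8 higher and 2 lower in M1, and 8 higher and 2 lower in M2 (10 and 2 without that library), with medians of 0.46, 0.36 and 0.25. The shares of all genes called in either direction were 54.3%, 57.2% and 52.3%. IRF2BPL, a relative of IRF2BP2, went from 9.08 ± 0.541 FPKM to 46.0 ± 2.39 in M0, a log2 difference of 2.22 ± 0.13, and BATF2 rose by 2.11. NFATC2 fell by 1.26 in M0. Among 10 feedback inhibitors, 5 were higher and 0 lower in M0, 6 higher and 2 lower in M1, and 4 higher and 0 lower in M2 (6 and 0 without that library), beside the 54.3%, 57.2% and 52.3% of all genes called. Their medians were 0.44, 0.25 and 0.18, with the ubiquitin editor TNFAIP3 at 1.97, 0.84 and 1.95.

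Downstream, the 34 tested targets of ISGF3, a list that holds genes known from the same data to respond, had 34 higher in CES1KD M0, 24 higher and 1 lower in M1, and 34 higher in M2, where 28.1%, 28.5% and 25.6% of all genes were higher. Their medians were 2.81, 0.40 and 2.40. MX1, an antiviral GTPase, had log2 differences of 4.06, 1.47 and 3.86, and RSAD2, or viperin, rose by 4.05 in M0. M1 treatment raised all 34 in WT (median 3.87), beside 26.4% of all genes, and IL-4 raised 1 and lowered 16, beside 14.6% and 12.5%. The knockdown difference was smaller in M1 than in M0 for all 34 (interaction, limma), beside 13.2% of all genes, with a median change of -2.36. IRF7, itself a target of ISGF3, had 2.40, 0.08 and 1.34 in M0, M1 and M2.

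Targets of IRF1 and interferon gamma, 25 of 26 tested, were mostly higher in CES1KD in M0 and M2 and mostly lower in M1. In CES1KD M0 15 were higher and 2 lower (median 0.24), in M1 5 were higher and 15 lower (median -0.30), and in M2 14 were higher and 2 lower (median 0.22), or 16 and 2 without the second CES1KD library. Of all genes 28.1%, 28.5% and 25.6% were higher, and 26.3%, 28.7% and 26.7% lower, for M0, M1 and M2. CXCL9, a T cell chemokine, went from 250 ± 33.6 FPKM in WT M1 to 33.0 ± 5.21 in CES1KD M1, a log2 difference of -2.88 ± 0.09. SERPING1, the complement C1 inhibitor, fell by 2.10 in M1 and IDO1, which degrades tryptophan, fell by 2.09. M1 treatment raised all 25 in WT with a median of 2.86, beside 26.4% of all genes. The list holds targets of interferon gamma, which M1 cells received, so that rise was largely built in. Among the genes higher in M0, GBP1 had 1.84, LAP3 1.53 and B2M 1.47.

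Of 9 tested targets of IRF8 with PU.1, 3 were higher and 4 lower in CES1KD M0, 2 higher and 6 lower in M1, and 3 higher and 4 lower in M2, beside 54.3%, 57.2% and 52.3% of all genes called in either direction. Their medians were -0.043, -0.63 and -0.0061. CYBB, the catalytic subunit of the phagocyte NADPH oxidase, went from 129 ± 7.67 FPKM in WT M0 to 40.6 ± 0.611 in CES1KD M0, and its log2 difference was -1.64, -2.34 and -1.98 in M0, M1 and M2. FCGR1A, the high-affinity IgG receptor, had -1.27, -1.65 and -0.96, while the lysosomal proteases CTSC in M0 (0.55) and CTSS in M2 (0.58) were higher. Of 11 tested genes of IRF4 and the IL-4 response, IL-4 raised 10 in WT (median 3.62), beside 14.6% of all genes. The list was drawn up for the IL-4 response, so that rise was largely built in. In CES1KD M2 3 of the 11 were higher and 7 lower (median -0.32), or 3 and 5 without the second library (median -0.21), beside 25.6% and 26.7% of all genes. FCER1A, a subunit of the IgE receptor, went from 82.4 ± 6.72 FPKM in WT M2 to 4.52 ± 0.962 in CES1KD M2 (-3.93 ± 0.09), F13A1 fell by 3.16 and ALOX15 fell by 1.56. In M0 the counts were 2 and 3 (median -0.050), and in M1 3 and 5 (median -0.21).

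Of 5 tested cytokine targets of IRF5, 3 were higher and 2 lower in M0 and M2, and 2 and 2 in M1, with medians of 0.34, -0.22 and 0.61 for M0, M1 and M2, beside 54.3%, 57.2% and 52.3% of all genes called. IL1B went from 21.2 ± 1.61 to 138 ± 12.1 FPKM in M0 (log2 difference 2.64, with 0.64 and 1.86 after M1 and M2 treatment), whereas IL12A had -1.07 in M0. Of 11 tested macrophage markers, 5 were higher and 4 lower in M0, 6 higher and 3 lower in M1, and 4 higher and 3 lower in M2, beside 54.3%, 57.2% and 52.3% of all genes called. In M2 the count moved with the second CES1KD library: without it 7 were higher and 4 lower, and the median was 0.46 instead of 0.26. These markers moved in both directions, CD163 by 2.04 and LYZ by -1.93 in M0.

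**Figure D5:**
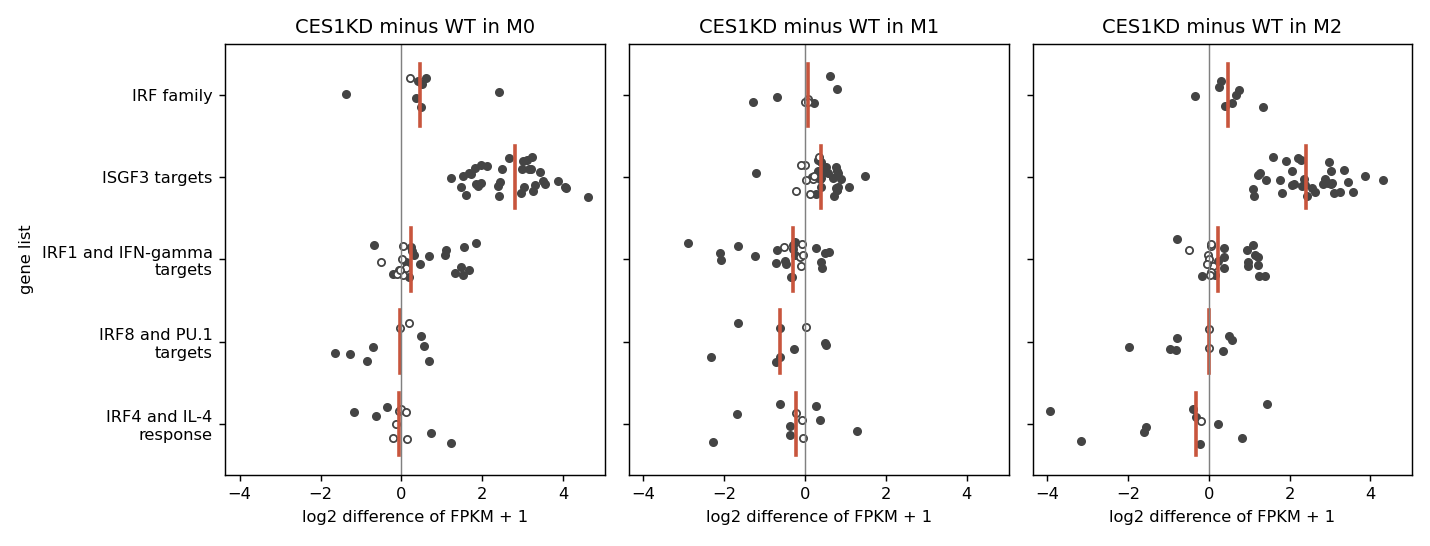
Log2 difference of FPKM + 1, CES1KD minus WT (horizontal axis), for each tested gene of the family and of 4 target lists (rows) in M0, M1 and M2 (panels); filled points passed at an adjusted p under 0.05 and red bars are list medians. The 34 ISGF3 targets centre on 2.81 in M0, 0.40 in M1 and 2.40 in M2, and the IRF1 and interferon gamma targets on 0.24, -0.30 and 0.22.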

How the data were processed

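RNA of 24 THP-1 libraries was sequenced, and gene levels were deposited by the authors as FPKM in a single table of 58735 genes. CASAVA, HISAT2 and DESeq are named, without versions, in the submitters' processing notes; RNA integrity numbers were at least 4, per the labels. Coordinates of the table equal those of GENCODE 29 on GRCh38 for 99.9% of genes and for all 9 members. With the deposited gene length, 100% of values were whole multiples of a library's value for 1 fragment (tolerance 1e-06), which gave the fragments.

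Genes with at least 1 FPKM in at least 4 libraries were kept (13242). Values were tested as log2(FPKM + 1) with limma 3.58.1 in R 4.3.3 over all 6 groups (empirical Bayes with trend), adjusted over genes by Benjamini-Hochberg in each of 9 comparisons and called under 0.05. IRF4, ratios and the steps in the order of levels were tested two-sided by exact permutation (scipy 1.17.1). The script was tested on simulated data. No count model was fitted as the main test, since FPKM are not counts. Beside the members and CES1, the text names overlapping genes, the 3 nearest genes of each member and up to 3 genes per list and comparison with the smallest p. The members and lists were chosen with earlier results of these data known. Fragment counts limit precision for IRF4 and IRF9 in particular; counting errors are separate from the spread between libraries. Promoter sequences are from RefSeq. Some genes of the lists are not reported here.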

Additional observations from a re-analysis of the deposited data

Results flagged for a closer look

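Among 54 sets of 4 libraries (9 members in 6 groups), 6 held a library far from the other 3, where chance alone flags about 1 in 20 independent sets. The members share the same libraries, so the 54 sets were not independent, and the share of all genes flagged was not computed. Of the 6 flags, 4 were the lowest value in the second CES1KD M2 library, which stood apart across genes: IRF1 at 3.95 FPKM, IRF3 at 15.5, IRF5 at 17.9 and IRF2BP2 at 34.7. IRF8 was highest in the fourth WT M1 library at 14.2 FPKM and lowest in the third CES1KD M2 library at 21.0 FPKM.

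The knockdown difference changed with the state in 5 of 16 interaction tests of the 8 tested members (limma, adjusted over all genes). Of all genes, 23.6% were called for the change from M0 to M1 and 6.65% for that from M0 to M2. On the log2 scale the change from M0 to M1 was -0.91 for IRF1 and -2.32 for IRF7. The change from M0 to M2 was -1.06 for IRF7, 1.03 for IRF8 and 0.27 for IRF2BP2.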

How the results depend on the processing

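Alternatives were a pseudocount of 0.1, no filter, a filter at 5 FPKM, median-of-ratios scaling, scaling to library totals, limma-voom on recovered fragments, a fit of only the groups compared, a replicate block, and leaving out each library. Over the alternatives that kept all libraries, 525 member differences held direction and call, 24 lost the call, 10 gained it and 8 changed sign; with 1 library left out these were 638, 43, 8 and 15. The changes of sign touched values that were not called: under library totals and limma-voom IRF2 in M2 against M0 in WT gave -0.055 under both, IRF3 there -0.073 and -0.084 (-0.0022 with median-of-ratios scaling), and IRF3 in M1 against M0 in CES1KD -0.21 under both; IRF7 in CES1KD against WT M1 gave -0.00041 under library totals. With 1 library left out the ranges were -0.0079 to 0.091 for IRF2 in M2 against M0 in WT, -0.084 to 0.096 for IRF3 there, -0.098 to 0.081 for IRF3 in CES1KD against WT M1, -0.055 to 0.12 for IRF3 in M1 against M0 in CES1KD, -0.026 to 0.21 for the IRF3 change from M0 to M2, -0.0020 to 0.16 for IRF9 in CES1KD against WT M1 and -0.11 to 0.036 for IRF9 in M2 against M0 in WT. Members called in M2 against M0 in CES1KD went from 2 to 1 with no filter and with only the groups compared, where calls over all genes went from 3025 to 1861, and ranged from 1 to 3 with 1 library left out. Members whose knockdown difference changed from M0 to M1 went from 2 to 4 with limma-voom, where calls over all 13242 genes went from 3126 to 3033. The cause was not tested. Replicate numbers paired the libraries at most in part. Over the 7 comparisons of groups, same-numbered libraries correlated at -0.14 to 0.41, and in none of them were all 4 pairs above 0.1. For CES1KD against WT, replicates 1 to 4 gave 0.043, 0.059, 0.36 and 0.41 in M1. In M2 they gave 0.33, 0.41, -0.058 and 0.19. Some stimulated libraries of the same number thus shared deviations, which the main fit and the permutation tests leave out. With the replicate block 8, 5 and 8 members were called in M0, M1 and M2, IRF1 in M0 among them (limma, adjusted p = 0.0325). Calls over all 13242 genes rose as well, from 7196, 7578 and 6929 to 7436, 7810 and 7203. Counts of the gene lists without the second CES1KD M2 library were added after seeing the data.

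Ratios of IRF8 to IRF4 were not read, since they moved with a pseudocount. With 3 libraries against 4 the exact test cannot reach 0.05. IRF4, at 1 to 36 fragments a library, and IRF9, at 18 to 150, had the fewest fragments of the members, and no detection limit was computed.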
